A study of Mus musculus with 14 samples.

Results

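Astrocytes answer brain injury and inflammation by changing their gene expression, and the genes described here cover both sides of that change. A list of 37 genes was used, of which 22 are reactive genes, known to rise in reactive astrocytes, and 15 are identity genes, which mark astrocytes as a cell type. The list was chosen with earlier results of these data known, so its counts of called genes are descriptions and no independent test. Members were found by symbol in a table of read counts from mouse brain, and 35 of the 37 were among the 13866 genes listed, 20 reactive and 15 identity genes. Fbln5 and B3gnt5 were not listed. All 35 passed the filter on low counts and were among the 11852 genes tested, but 8 of the reactive genes (Cd44, Aspg, Steap4, Ptx3, Emp1, Slc10a6, Cd109 and Tgm1) would not have passed it on the PBS libraries alone.

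Astrocytes supply neurons with metabolites, clear glutamate and potassium from the synapse and line the blood vessels of the brain. In a reactive state astrocytes enlarge and increase intermediate filament proteins, of which glial fibrillary acidic protein (Gfap) is the most widely used marker, and secrete protease inhibitors, iron-handling proteins and complement factors. Most of the reactive genes belong to a pan-reactive panel shared by several kinds of injury, a panel linked to endotoxin inflammation (often called A1) or a panel linked to ischaemia (often called A2), and Nes and A2m belong to none of these. Cytokines acting through STAT3 are known to induce Gfap, and cytokines released by microglia are known to induce part of the other reactive genes.

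Brains came from mice of 19 days of age, with 1 library per mouse. Conduritol B-epoxide (CBE) irreversibly inhibits acid beta-glucosidase, the lysosomal enzyme defective in Gaucher disease, and was used to model the neuronopathic form. WT mice were C57BL/6JOlaHsd. MyTrMaSt null mice lack Myd88, Trif (Ticam1), Mavs and Tmem173 (STING), the adaptors through which Toll-like receptors, RIG-I-like receptors and cytosolic DNA sensing induce type 1 interferon. The groups were WT + PBS (3 mice), WT + CBE (3 mice, 100 mg/kg), MyTrMaSt + PBS (3 mice) and MyTrMaSt + CBE (5 mice, 100 mg/kg), with daily injections from day 8 in each. The deletions are in all cells of the null mice, and WT mice came from a supplier whereas the null mice were a separate line, so genotype and line cannot be told apart. The design asks which part of the response to CBE needs these adaptors.

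Values are CPM, the counts of a gene per 1000000 counts of its library after TMM scaling of library sizes, and differences were tested with the edgeR quasi-likelihood F test in a model of the 4 group means over all 14 libraries. A gene is called changed at a Benjamini-Hochberg adjusted p below 0.05 over all genes tested, and called a differentially expressed gene (DEG) where it also changed at least 2-fold. Libraries held 1290616 to 3704691 counts, with the lowest total in WT + PBS replicate 1, where 1 CPM stood for 1.11 counts. This library stood apart from the other WT + PBS libraries: among the 35 members it was the lowest of the 3 for 20 and the highest for 11. All 4 deleted genes were still counted in the null libraries, Myd88 with 9 to 22 counts against 19 to 71 in WT, Ticam1 with 10 to 26 against 10 to 26, Mavs with 7 to 30 against 11 to 31 and Tmem173 with 17 to 34 against 1 to 30. Counts come from transcript 3′ ends, which may lie outside the deleted parts, so they do not check the deletions. Xist, a transcript of females, was at 0 counts in all 3 WT + PBS libraries, in MyTrMaSt + CBE replicate 4 also at 0, 1 in WT + CBE replicate 2 and 18 to 47 in the other 9, so sex differed between and within groups. In MyTrMaSt + PBS it had 32 to 46 counts, so between the PBS groups sex and genotype cannot be told apart. The difference of the responses to CBE uses these PBS groups too.

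The brain label was met by 6 defining astrocyte markers (Aldh1l1, Slc1a2, Slc1a3, Aqp4, Gja1 and Aldoc), none at 0 in any library, with a summed level of 2403 to 3182 CPM in WT + PBS and 3679 to 3958 CPM in MyTrMaSt + CBE. In RNA from brain tissue, a change in the number of astrocytes and a change in RNA per astrocyte cannot be told apart. Other cells of the brain hold some of these genes too, and 8 of 10 microglia markers were called higher with CBE in WT and 8 of 10 in MyTrMaSt mice, against 6.7% and 5.32% of all genes. Their summed level was 397 to 432 CPM in WT + PBS, 2008 to 2323 CPM in WT + CBE, 321 to 391 CPM in MyTrMaSt + PBS and 1010 to 1165 CPM in MyTrMaSt + CBE. Of the same 10 markers, 4 were called lower in MyTrMaSt + CBE than in WT + CBE (Ctss, Aif1, Ptprc and Cd68), against 2.35% of all genes, and the part of microglia in the results below was not tested.

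Of the 20 reactive genes, 16 were called higher with CBE in WT and 15 in MyTrMaSt mice, against 6.7% and 5.32% of all genes. Of these called genes 9 and 8 are among the 12 reactive genes that pass the filter on the PBS libraries alone. The response was called smaller in MyTrMaSt mice for 4 of the 20, against 0.413% of all genes. This count of members was 0 without MyTrMaSt + PBS replicate 3 or with the Xist level as a covariate. The 20 reactive genes summed to 337, 358 and 325 CPM in WT + PBS and to 3899, 4649 and 4506 CPM in WT + CBE. In MyTrMaSt + PBS they summed to 359, 365 and 430.4 CPM, and in MyTrMaSt + CBE to 2016, 1913, 1799, 2299 and 2316 CPM. Every library of MyTrMaSt + CBE lay above both PBS groups and below every library of WT + CBE. The 15 identity genes summed to 4739, 4973 and 5692 CPM in WT + PBS, 6672, 6675 and 6424 CPM in WT + CBE, 5418, 5219 and 5263 CPM in MyTrMaSt + PBS and 7451, 7358, 6966, 7389 and 7465 CPM in MyTrMaSt + CBE. The sum of the identity genes was thus higher in both CBE groups, by a far smaller factor than that of the reactive genes, and lay higher in MyTrMaSt + CBE than in WT + CBE. These sums follow the most abundant genes of each list and have no test.

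**Figure D1:**
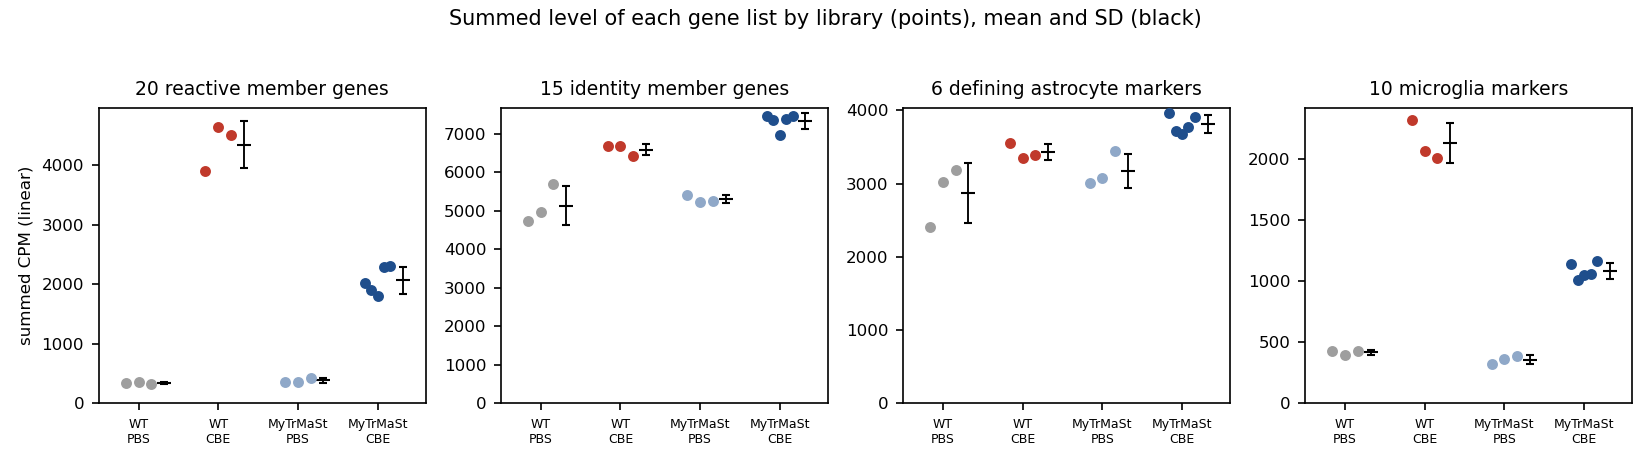
Summed level in CPM (y axis, linear, from 0) of the 20 reactive genes, the 15 identity genes, 6 defining astrocyte markers and 10 microglia markers in each of the 14 libraries (points), by group (x axis), with mean and SD in black. The sum of the reactive genes was 325 to 358 CPM in WT + PBS, 3899 to 4649 CPM in WT + CBE, 359 to 430.4 CPM in MyTrMaSt + PBS and 1799 to 2316 CPM in MyTrMaSt + CBE.

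With CBE in WT mice, 16 of the 20 reactive genes were called higher and none lower, where 6.7% of all genes tested were called higher. All 16 were DEGs, as were 5.2% of all genes in the same direction, and the median log2 fold change of the 20 genes was 3.31, against -0.02 over all genes. In MyTrMaSt mice 15 of 20 were called higher and none lower, against 5.32% of all genes, 14 of them were DEGs (Tgm1 among them at a fitted value), against 3.23%, and the median was 2.04, against 0.01 over all genes. Genes with almost no counts in PBS libraries enter these medians at fitted values, and with such genes at the lower end of their counting interval or at their bound the medians were 3.12 and 1.83. Of the 12 reactive genes that pass the filter on the PBS libraries alone, 9 were called higher in WT and 8 in MyTrMaSt mice, against 4.74% and 4.2% of all genes that pass it there, with medians of 2.29 and 1.49. Amigo2, Emp1, Tm4sf1 and Nes were called in neither genotype by edgeR, and Cp was called in WT mice alone. DESeq2 and limma called Emp1 higher in WT mice as well (adjusted p = 0.0483 and 0.017). Without MyTrMaSt + PBS replicate 2, 9 reactive genes were called in MyTrMaSt mice. The groups did not overlap for 17 reactive genes in WT and 14 in MyTrMaSt mice, where 15.1% and 11.8% of all genes lay above PBS without overlap.

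Comparing the CBE groups directly, 9 of the 20 reactive genes were lower in MyTrMaSt + CBE than in WT + CBE and none was higher, against 2.35% of all genes called lower and 0.194% called higher. These were Lcn2, Steap4, Ptx3, Tgm1, Cp, Slc10a6, Serpina3n, Vim and Aspg, of which all but Aspg were DEGs, as were 1.93% of all genes. Of these, Lcn2, Cp, Serpina3n and Vim pass the filter on the PBS libraries alone. Steap4, Ptx3, Tgm1, Slc10a6 and Aspg pass it only with CBE libraries included, so the count and the median partly rest on that filter. The median log2 fold change of the 20 genes was -0.70, against 0.02 over all genes. Of the 15 identity genes edgeR called 0, with 4 at an unadjusted p below 0.05, as were 8.06% of all genes, whereas DESeq2 called 2 higher (Slc1a2 and S100b) and limma 3 higher (also Aldoc) and 1 lower (Slc1a3). By edgeR too, Slc1a2 and S100b were called higher and Slc1a3 lower without WT + PBS replicate 1 (adjusted p = 0.00819, 0.0118 and 0.0353) and with only the CBE groups fitted (adjusted p = 0.00493, 0.0151 and 0.0336), and S100b was called without WT + PBS replicate 3 or WT + CBE replicate 1 (adjusted p = 0.0385 and 0.0471). Between the PBS groups 27 members (12 reactive and 15 identity genes) pass the filter on those libraries alone, and of these edgeR called 0, where 0.186% of all genes were called, and 3 of the 27 (1 reactive and 2 identity genes) had an unadjusted p below 0.05, as did 16.8% of all genes. DESeq2 and limma also called 0 there, and the other 8 members were too scarce in PBS libraries to be compared. The difference of the 2 responses, that is the log2 change with CBE in MyTrMaSt minus that in WT, was called for 4 members, all reactive and all smaller in MyTrMaSt mice (Lcn2, Cp, Serpina3n and Vim), where 0.413% of all genes were called smaller. The count of members called for it was 0 without MyTrMaSt + PBS replicate 3, 1 without WT + CBE replicate 2 or 3, 2 without MyTrMaSt + PBS replicate 2 and 0 with the Xist level as a covariate.

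**Figure D2:**
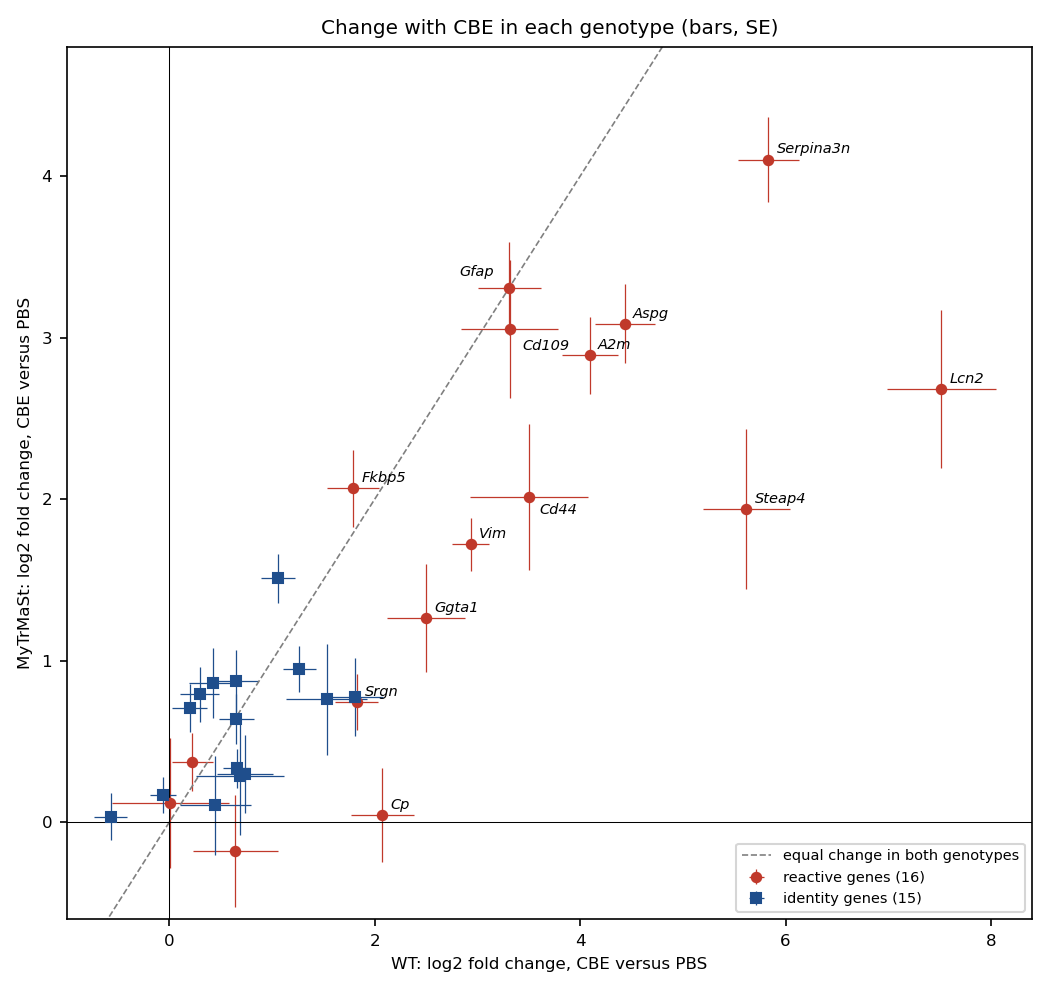
Log2 fold change with CBE in WT mice (x axis) against that in MyTrMaSt mice (y axis) for 16 reactive genes (red circles) and 15 identity genes (blue squares), with SE bars and a dashed line of equal change. Ptx3, Slc10a6, Emp1 and Tgm1, whose PBS libraries held 3 counts or fewer in a genotype, are left out. Gfap lay on the line at 3.31 and 3.31 (3.92 in WT without WT + PBS replicate 1), and Cd109 near it at 3.31 and 3.05 (4.87 in WT without WT + PBS replicate 2), while Lcn2 (7.52 and 2.68), Steap4 (5.62 and 1.94) and Cp (2.07 and 0.04) lay far below it. Without MyTrMaSt + PBS replicate 3 the MyTrMaSt values were 3.73 for Lcn2 and 2.72 for Steap4.

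Among the intermediate filament genes, Gfap rose to overlapping levels in both genotypes whereas Vim rose less in MyTrMaSt mice. Gfap, the filament protein specific to astrocytes in the brain, gave 98.4, 40.6 and 27.4 CPM in WT + PBS and 579.6, 480.1 and 498 CPM in WT + CBE. In MyTrMaSt mice Gfap gave 52.5, 54.9 and 46.1 CPM with PBS and 467, 614, 451, 470.2 and 532 CPM with CBE. All 8 CBE libraries lay above all 6 PBS libraries, and the CBE groups of the genotypes overlapped. The log2 fold change was 3.31 (adjusted p = 5.6e-07, SE 0.31) in WT, a 9.93-fold rise, and 3.31 (adjusted p = 7.82e-07, SE 0.29) in MyTrMaSt mice, a 9.89-fold rise. Between the CBE groups it was -0.03 (adjusted p = 1, SE 0.24), with a 95% confidence interval of -0.54 to 0.47, and the sign of this small value turned on leaving out a single library. The difference of the responses was -0.01, with a 95% interval of -0.82 to 0.80, so a difference in either direction remains possible. The highest WT + PBS value came from the library that stood apart, and without it the rise in WT was 3.92 on the log2 scale.

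Vim, which encodes vimentin, another intermediate filament protein of astrocytes that is also made by endothelial and other cells, gave 95.7, 133 and 130.4 CPM in WT + PBS and 818, 1017 and 929 CPM in WT + CBE. In MyTrMaSt mice the values were 139, 114 and 160.3 CPM with PBS and 446, 435, 369, 518 and 499 CPM with CBE. Each MyTrMaSt + CBE library was above every PBS library and below every WT + CBE library. The log2 fold change with CBE was 2.93 (adjusted p = 5.03e-09, SE 0.18) in WT and 1.72 (adjusted p = 2.06e-06, SE 0.16) in MyTrMaSt mice, the genotypes differed after CBE by -1.02 (adjusted p = 0.000247, SE 0.15), and the difference of the responses was -1.21 (adjusted p = 0.0199, SE 0.23). The last of these calls was lost without WT + CBE replicate 2 or 3 or MyTrMaSt + PBS replicate 1 or 3 (adjusted p = 0.0572 to 0.0956). Of 9 endothelial markers tested, edgeR called 0 with CBE in WT mice (1 at an unadjusted p below 0.05) and 1 higher and 1 lower in MyTrMaSt mice, where 6.7% of all genes were called higher and 3.89% lower in WT and 5.32% and 2.44% in MyTrMaSt mice. Nes, which encodes nestin, a filament protein of progenitors and some reactive astrocytes, was scarce, from 1.69 to 6.32 CPM in WT libraries and 2.63 to 11.8 CPM in MyTrMaSt libraries, and its groups overlapped in each comparison.

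**Figure D3:**
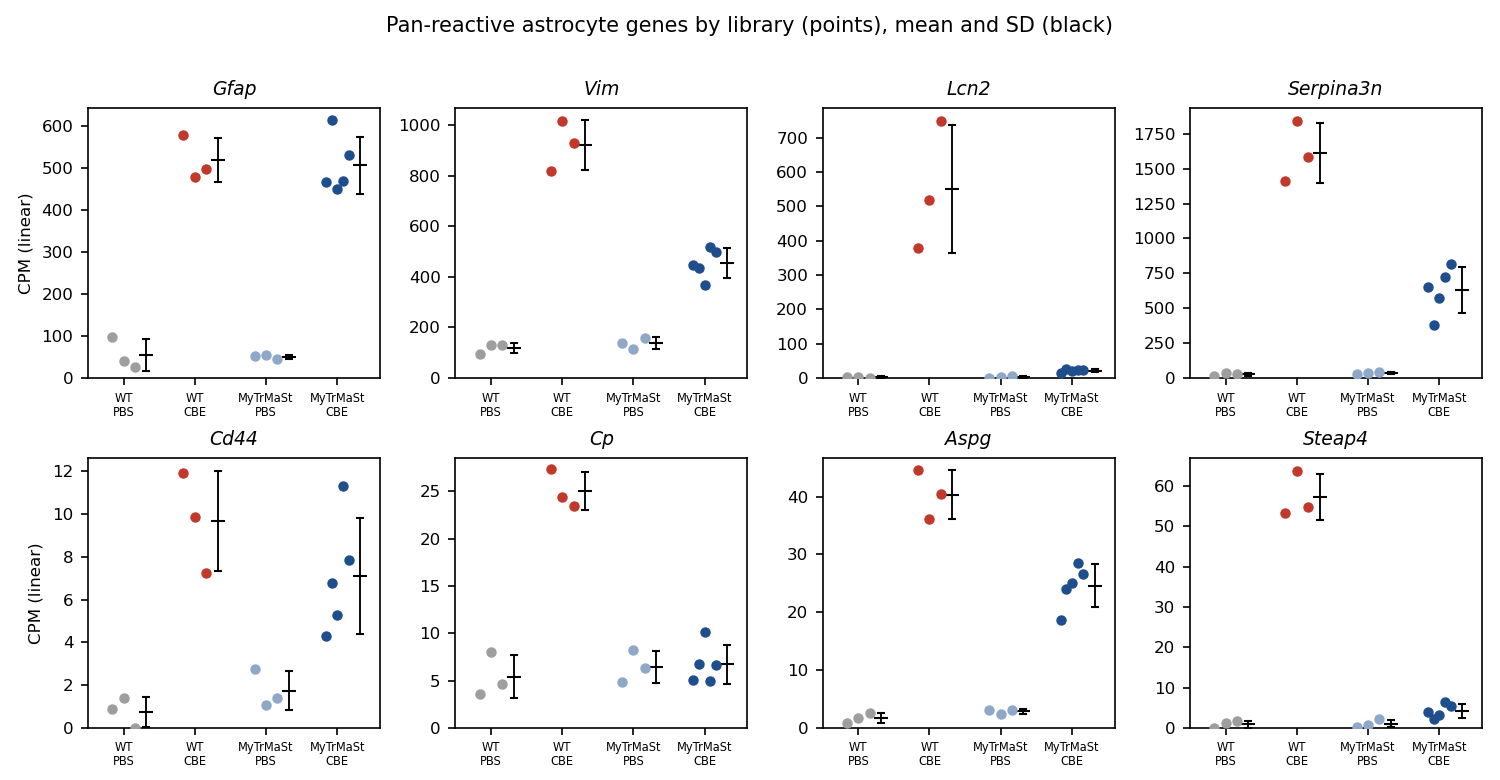
CPM (y axes, linear, from 0, a scale of its own for each gene) of the 8 pan-reactive genes in each of the 14 libraries (points) by group (x axis), with mean and SD in black. Gfap reached 451 to 614 CPM in MyTrMaSt + CBE and 480.1 to 580 CPM in WT + CBE, whereas Lcn2 stayed at 15.2 to 25.5 CPM in MyTrMaSt + CBE against 380.3, 519 and 749.6 CPM in WT + CBE.

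Of the genes of secreted proteins, Lcn2, Serpina3n, Cp and Ptx3 were lower in MyTrMaSt + CBE than in WT + CBE, and A2m was not called between these groups. Lcn2, which encodes lipocalin 2, an iron-siderophore binding protein released by reactive astrocytes and other cells, gave 4.51, 3.87 and 0.844 CPM in WT + PBS and 380.3, 519 and 749.6 CPM in WT + CBE. In MyTrMaSt mice it gave 0, 2.91 and 7.4 CPM with PBS and 15.2, 25.5, 21.5, 24.6 and 23.1 CPM with CBE. The 5 MyTrMaSt + CBE libraries lay close together, above all PBS libraries and below the lowest WT + CBE library. The log2 fold change with CBE was 7.52 (adjusted p = 2.21e-08, SE 0.53) in WT and 2.68 (adjusted p = 0.00215, SE 0.49) in MyTrMaSt mice, or 3.73 without MyTrMaSt + PBS replicate 3. After CBE the level in MyTrMaSt mice was 24.9-fold lower, a log2 fold change of -4.64 (adjusted p = 3.62e-08, SE 0.34), and the difference of the responses was -4.84 (adjusted p = 0.00847, SE 0.82). Without MyTrMaSt + PBS replicate 3, which holds the highest of the PBS values, the difference of the responses was -3.80 (adjusted p = 0.257), and by limma it was -3.87 (adjusted p = 0.0852).

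Serpina3n, a serine protease inhibitor and a leading marker of reactive astrocytes, gave 17.1, 33.2 and 30.8 CPM in WT + PBS and 1412, 1843 and 1582 CPM in WT + CBE. It gave 29, 37.2 and 43.7 CPM in MyTrMaSt + PBS and 649, 383, 575, 726 and 819 CPM in MyTrMaSt + CBE. It thus rose strongly in both genotypes, and no MyTrMaSt + CBE library reached the lowest WT + CBE library. The log2 fold change was 5.83 (adjusted p = 9.24e-10, SE 0.30) in WT and 4.10 (adjusted p = 1.71e-08, SE 0.26) in MyTrMaSt mice, the CBE groups differed by -1.35 (adjusted p = 0.000377, SE 0.20), and the difference of the responses was -1.73 (adjusted p = 0.0272, SE 0.34). The call on the responses was lost without WT + CBE replicate 2 or 3, MyTrMaSt + PBS replicate 2 or 3 or MyTrMaSt + CBE replicate 3 (adjusted p = 0.0612 to 0.14). Serpina3n lies at chr12:104406729-104414329 (mm10) among near-identical paralogs, of which Serpina3f, Serpina3g, Serpina3h and Serpina3i are also listed, so the split of reads between them is uncertain.

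Cp, which encodes ceruloplasmin, a copper-containing ferroxidase on astrocytes, was the only reactive gene that edgeR called with CBE in WT mice and not in MyTrMaSt mice. Its values were 3.61, 8.01 and 4.64 CPM in WT + PBS and 27.3, 24.4 and 23.5 CPM in WT + CBE. In MyTrMaSt mice they were 4.83, 8.19 and 6.34 CPM with PBS and 5.07, 6.76, 10.1, 4.92 and 6.65 CPM with CBE, so the MyTrMaSt groups overlapped. The log2 fold change was 2.07 (adjusted p = 0.00012, SE 0.30) in WT and 0.04 (adjusted p = 0.952, SE 0.29) in MyTrMaSt mice, with a 95% interval of -0.57 to 0.66 for the latter. The CBE groups differed by -1.90 (adjusted p = 9.3e-05, SE 0.25), and the difference of the responses was -2.03 (adjusted p = 0.0387, SE 0.42), a call that was lost without WT + PBS replicate 3, WT + CBE replicate 1, 2 or 3, MyTrMaSt + PBS replicate 2 or 3 or MyTrMaSt + CBE replicate 1, 2, 4 or 5 (adjusted p = 0.0601 to 0.159). In the last 500 bases of the Cp gene 108 exonic bases are shared with Hps3 on the opposite strand, so reads of the 2 genes may be mixed.

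Ptx3, a pentraxin that binds microbes and damaged cells, had 1 or 2 counts in each WT + PBS library and 71.6, 74.6 and 74.7 CPM in WT + CBE. The ratio of pooled counts was 104, with an exact 95% interval of 44.2 to 321 that covers counting error only. The log2 change fitted by edgeR was 6.59 (adjusted p = 4.06e-06), and 5.94 without WT + PBS replicate 2. In MyTrMaSt mice Ptx3 gave 0.691, 0.528 and 2.11 CPM with PBS and 3.51, 4.51, 4.46, 25.1 and 6.65 CPM with CBE, where replicate 4 was far above the others. The rise in MyTrMaSt mice was 2.93 (adjusted p = 0.0167, SE 0.72) on the log2 scale and was not called without MyTrMaSt + PBS replicate 1 or 2 (adjusted p = 0.0688 to 0.0944). It was 3.71 without MyTrMaSt + PBS replicate 3 and 2.13 without MyTrMaSt + CBE replicate 4. The CBE groups did not overlap and differed by -3.12 (adjusted p = 6.17e-05, SE 0.40), or by -3.93 without MyTrMaSt + CBE replicate 4.

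A2m, an alpha-2-macroglobulin protease inhibitor, gave 9.02, 14.6 and 11 CPM in WT + PBS and 171, 243 and 211 CPM in WT + CBE. It gave 9.67, 18 and 25 CPM in MyTrMaSt + PBS and 149.6, 128, 113, 125 and 137 CPM in MyTrMaSt + CBE. The rise was called in both genotypes, at 4.09 (adjusted p = 1.37e-08, SE 0.27) and 2.89 (adjusted p = 3.51e-07, SE 0.24) on the log2 scale. The CBE groups did not overlap, yet the difference of -0.67 (adjusted p = 0.0985, SE 0.19) was not called. It was called by DESeq2 (adjusted p = 0.0385) and by limma (adjusted p = 0.00439), and by edgeR without WT + PBS replicate 1 or MyTrMaSt + PBS replicate 1 (adjusted p = 0.0121 and 0.0284). The difference of the responses was -1.20 (adjusted p = 0.189, SE 0.35), and -1.49 (adjusted p = 0.0454) without MyTrMaSt + PBS replicate 1.

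Among genes of membrane proteins and enzymes, Steap4, Aspg, Slc10a6 and Tgm1 were lower in MyTrMaSt + CBE than in WT + CBE, and Cd44 and Cd109 were not called between these groups. Steap4, a metalloreductase of iron and copper handling, gave 0, 1.11 and 1.69 CPM in WT + PBS and 53.2, 63.8 and 54.8 CPM in WT + CBE. In MyTrMaSt mice it gave 0.345, 0.793 and 2.11 CPM with PBS and 3.9, 2.25, 3.24, 6.4 and 5.48 CPM with CBE. It rose in both genotypes, to a level 13.6-fold lower in MyTrMaSt mice. Its log2 changes were 5.62 (adjusted p = 4.25e-08, SE 0.42) in WT, 1.94 (adjusted p = 0.0215, SE 0.50) in MyTrMaSt mice and -3.76 (adjusted p = 4.88e-08, SE 0.28) between the CBE groups. The rise in MyTrMaSt mice was not called without MyTrMaSt + PBS replicate 1 or 2 or MyTrMaSt + CBE replicate 5 (adjusted p = 0.0517 to 0.105), and was 2.72 without MyTrMaSt + PBS replicate 3. The difference of the responses, -3.68 (adjusted p = 0.0626, SE 0.83), was not called by edgeR and was called by DESeq2 (adjusted p = 0.000788) and limma (adjusted p = 0.0147), and without WT + PBS replicate 1 (adjusted p = 0.0362).

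Aspg, an asparaginase, gave 0.902, 1.66 and 2.53 CPM in WT + PBS and 44.5, 36.1 and 40.4 CPM in WT + CBE. It gave 3.11, 2.38 and 3.17 CPM in MyTrMaSt + PBS and 18.7, 24, 25.1, 28.6 and 26.6 CPM in MyTrMaSt + CBE. The rise was 4.43 (adjusted p = 1.13e-08, SE 0.29) in WT and 3.09 (adjusted p = 2.32e-07, SE 0.24) in MyTrMaSt mice on the log2 scale. Its difference between the CBE groups was -0.72 (adjusted p = 0.0288, SE 0.17), the smallest of the 9 called, and was not called without WT + CBE replicate 1, 2 or 3 or MyTrMaSt + CBE replicate 1, 2 or 3 (adjusted p = 0.055 to 0.249).

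Slc10a6, a transporter of sulphated steroids, gave 0, 1.11 and 0.844 CPM in WT + PBS and 7.27, 7.51 and 14.5 CPM in WT + CBE. In MyTrMaSt + PBS it had 0 to 3 counts per library, and it gave 2.34, 4.88, 2.03, 2.46 and 2.74 CPM in MyTrMaSt + CBE. The rise in WT was 3.42 (adjusted p = 0.000503, SE 0.57) on the log2 scale, and in MyTrMaSt mice the ratio of pooled counts was 5.58, with a counting interval of 2.18 to 18.2 (edgeR test of the change, adjusted p = 0.0274). The latter call was lost without MyTrMaSt + PBS replicate 1 or 2 or MyTrMaSt + CBE replicate 2 (adjusted p = 0.0773 to 0.103), and the fitted log2 change of 2.37 was 3.11 without MyTrMaSt + PBS replicate 3. The CBE groups differed by -1.66 (adjusted p = 0.0224, SE 0.39), a call lost without WT + CBE replicate 3 or MyTrMaSt + CBE replicate 1, 3 or 5 (adjusted p = 0.0563 to 0.213).

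Tgm1, a transglutaminase that cross-links proteins, had 0 counts in all 6 PBS libraries and gave 9.89, 6.57 and 8.44 CPM in WT + CBE and 1.17, 2.25, 0.405, 3.45 and 1.96 CPM in MyTrMaSt + CBE. Against a floor of 3 counts per library it was at least 5.19-fold higher with CBE in WT mice and at least 1.92-fold higher in MyTrMaSt mice. The edgeR test of the change, not of these bounds, gave adjusted p = 0.000135 and 0.0108. The CBE groups did not overlap and differed by -2.20 (adjusted p = 0.00735, SE 0.41), a call lost without WT + CBE replicate 1 (adjusted p = 0.0929).

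Cd44, the hyaluronan receptor, and Cd109, a membrane-anchored co-receptor of TGF-beta, rose in both genotypes with overlapping CBE groups. Cd44 gave 0.902, 1.38 and 0 CPM in WT + PBS, 11.9, 9.86 and 7.23 CPM in WT + CBE, 2.76, 1.06 and 1.41 CPM in MyTrMaSt + PBS and 4.29, 6.76, 5.27, 11.3 and 7.83 CPM in MyTrMaSt + CBE. Its rises were 3.50 (adjusted p = 0.00041, SE 0.58), or 4.89 without WT + PBS replicate 2, and 2.01 (adjusted p = 0.00939, SE 0.45), the latter not called without MyTrMaSt + PBS replicate 2 or 3 (adjusted p = 0.0574 to 0.07), and the difference between the CBE groups was -0.51 with a 95% interval of -1.24 to 0.22. Cd109 gave 0, 3.04 and 0.844 CPM in WT + PBS, 17.2, 22.1 and 14.5 CPM in WT + CBE, 0.691, 2.38 and 1.76 CPM in MyTrMaSt + PBS and 12.5, 10.1, 11.8, 18.7 and 18.4 CPM in MyTrMaSt + CBE. Here the rises were 3.31 (adjusted p = 9.32e-05, SE 0.47), or 4.87 without WT + PBS replicate 2, and 3.05 (adjusted p = 0.000158, SE 0.42), with a difference between the CBE groups of -0.34 and an interval of -0.97 to 0.30. Both intervals reach from clearly lower to higher levels in MyTrMaSt mice, so equal levels are not shown.

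Emp1 and Tm4sf1, membrane proteins of the ischaemia panel that blood vessels also express, were not called in either genotype by edgeR. Emp1 had 2 counts in each WT + PBS library, and the ratio of pooled counts with CBE in WT was 6.38, with a counting interval of 2.68 to 18.4 (edgeR test of the change, adjusted p = 0.0955), a change called by DESeq2, by limma and without MyTrMaSt + CBE replicate 4 (adjusted p = 0.0103 to 0.0483). In MyTrMaSt mice it gave 3.45, 1.32 and 3.17 CPM with PBS and 4.29, 2.63, 2.43, 17.7 and 3.13 CPM with CBE, with replicate 4 again the highest. Tm4sf1 gave 0.902, 21 and 24.9 CPM in WT + PBS, where the library that stood apart was far below the others, and 18.6 to 34.3 CPM in all other groups.

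In the panel linked to endotoxin inflammation, Fkbp5 rose to overlapping levels in both genotypes, whereas Ggta1 and Srgn lay lower in MyTrMaSt mice without passing the edgeR test. Fkbp5, a co-chaperone of the glucocorticoid receptor, gave 52.3, 43.1 and 30.8 CPM in WT + PBS and 145, 142 and 142 CPM in WT + CBE. In MyTrMaSt mice it gave 24.5, 36.5 and 30.3 CPM with PBS and 106, 157, 94, 182 and 104 CPM with CBE, so that the 3 WT values lay within the range of the 5 MyTrMaSt values after CBE. The rise was 1.79 (adjusted p = 8.28e-05, SE 0.25) in WT and 2.07 (adjusted p = 1.57e-05, SE 0.24) in MyTrMaSt mice, and the CBE groups differed by -0.16 with a 95% interval of -0.60 to 0.28.

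Ggta1, a galactosyltransferase, gave 2.71, 4.14 and 3.37 CPM in WT + PBS, 19.5, 21.1 and 21.7 CPM in WT + CBE, 6.56, 3.7 and 3.52 CPM in MyTrMaSt + PBS and 10.1, 7.89, 15.4, 5.42 and 15.7 CPM in MyTrMaSt + CBE. Its log2 rise was 2.50 (adjusted p = 0.000186, SE 0.38) in WT and 1.27 (adjusted p = 0.0252, SE 0.33) in MyTrMaSt mice, where the groups overlapped and the call was lost without MyTrMaSt + PBS replicate 2 or 3 or MyTrMaSt + CBE replicate 3 or 5 (adjusted p = 0.0649 to 0.136). Srgn, the core protein of a proteoglycan abundant in blood-derived cells, gave 20.8, 17.1 and 19.8 CPM in WT + PBS, 66, 62.4 and 73.5 CPM in WT + CBE, 26.9, 25.6 and 37 CPM in MyTrMaSt + PBS and 51.8, 45.8, 38.5, 57.1 and 56 CPM in MyTrMaSt + CBE. Its log2 rise was 1.82 (adjusted p = 5.9e-06, SE 0.21) in WT and 0.74 (adjusted p = 0.0123, SE 0.17) in MyTrMaSt mice, the latter not called without MyTrMaSt + PBS replicate 1 or 2 (adjusted p = 0.0651 to 0.0836). Every MyTrMaSt + CBE library was below every WT + CBE library for both genes, and neither difference was called by edgeR (adjusted p = 0.137 and 0.35), whereas limma called both (adjusted p = 0.0257 and 0.0457). In all, 6.02% of all genes were lower without overlap. The difference of the responses of Srgn was -1.08 (adjusted p = 0.105, SE 0.27), and was called by DESeq2 (adjusted p = 0.0256), by limma (adjusted p = 0.0308) and without WT + PBS replicate 1 (adjusted p = 0.0423). Amigo2, an adhesion molecule, gave 18 to 33.1 CPM in all 14 libraries, with log2 changes of 0.22 (adjusted p = 0.55, SE 0.20) in WT and 0.37 (adjusted p = 0.215, SE 0.18) in MyTrMaSt mice.

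**Figure D4:**
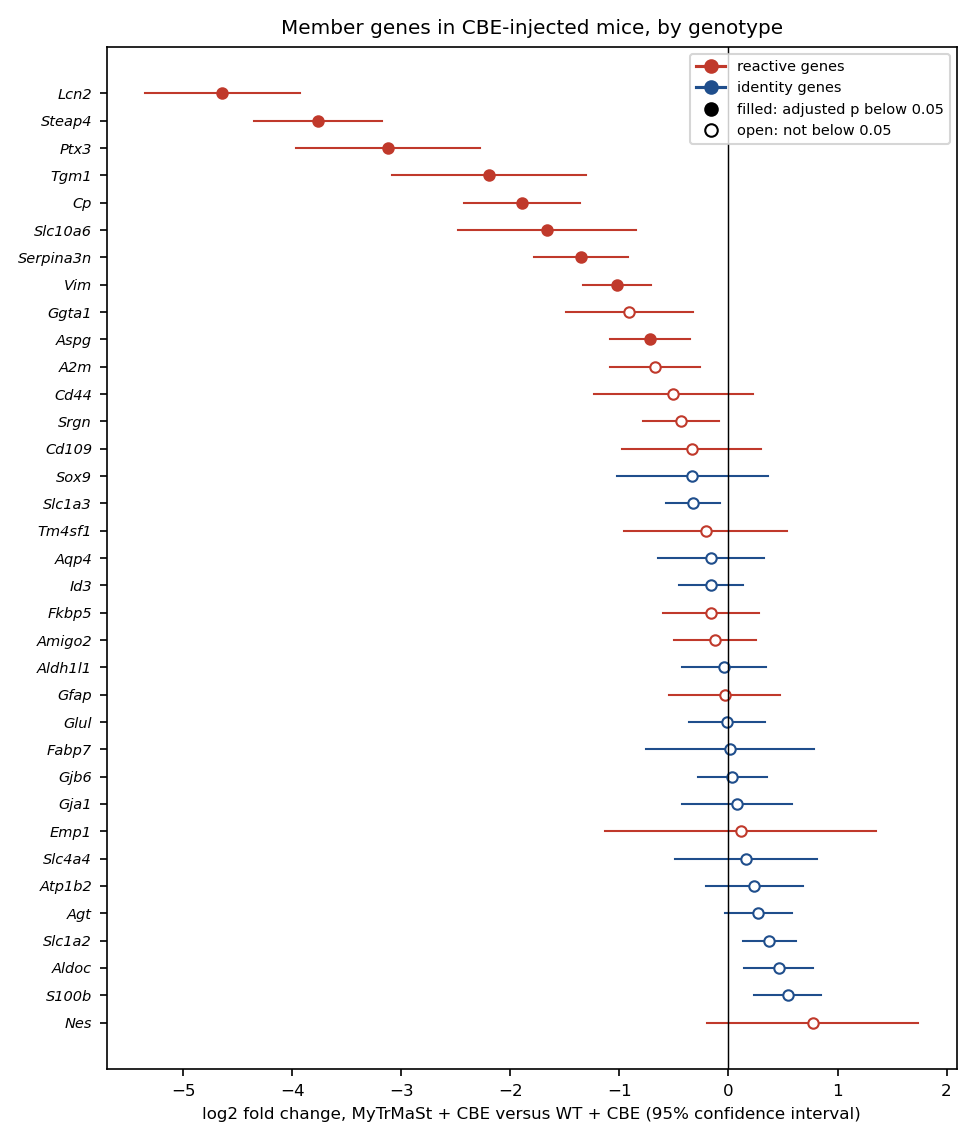
Log2 fold change between MyTrMaSt + CBE and WT + CBE (x axis) for the 35 members in order (y axis), with 95% confidence intervals, reactive genes in red and identity genes in blue. Filled points are the 9 called members, which reached from Lcn2 (-4.64) to Aspg (-0.72). The 15 identity genes, all open, lay between -0.33 and 0.54.

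The bases before the start site are shown for Gfap, which reached overlapping levels in both genotypes, and for 5 of the 9 genes that were lower in MyTrMaSt mice, those whose promoter held a match to a searched motif. Sequences are from RefSeq on GRCm38.p6, the build of the files, for 250 bases before to 10 bases after the start, written 5′ to 3′ on the gene's strand, with matches in capitals.
Gfap, chr11:102897191-102897450, minus strand: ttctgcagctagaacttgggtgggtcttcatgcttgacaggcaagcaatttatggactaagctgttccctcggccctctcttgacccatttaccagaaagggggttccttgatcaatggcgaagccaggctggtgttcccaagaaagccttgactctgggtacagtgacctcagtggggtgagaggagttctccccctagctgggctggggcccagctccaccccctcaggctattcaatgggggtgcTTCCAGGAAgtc
Lcn2, chr2:32387730-32387989, minus strand: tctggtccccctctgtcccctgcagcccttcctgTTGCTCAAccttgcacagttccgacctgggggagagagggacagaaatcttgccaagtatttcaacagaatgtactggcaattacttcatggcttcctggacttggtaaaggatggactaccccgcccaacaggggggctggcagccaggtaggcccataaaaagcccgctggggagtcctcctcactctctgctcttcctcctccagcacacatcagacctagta
Cp, chr3:19956804-19957063, plus strand: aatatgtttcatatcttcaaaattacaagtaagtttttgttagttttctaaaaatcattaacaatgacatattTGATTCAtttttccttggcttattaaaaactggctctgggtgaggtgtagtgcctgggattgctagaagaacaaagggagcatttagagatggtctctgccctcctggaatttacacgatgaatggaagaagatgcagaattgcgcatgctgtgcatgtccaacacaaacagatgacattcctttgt
Steap4, chr5:7960222-7960481, plus strand: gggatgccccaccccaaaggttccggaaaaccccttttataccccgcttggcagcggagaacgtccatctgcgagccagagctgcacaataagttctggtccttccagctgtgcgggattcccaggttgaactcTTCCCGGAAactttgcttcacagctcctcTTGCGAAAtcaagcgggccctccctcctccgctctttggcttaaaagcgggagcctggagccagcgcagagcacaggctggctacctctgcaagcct
Ptx3, chr3:66219637-66219896, plus strand: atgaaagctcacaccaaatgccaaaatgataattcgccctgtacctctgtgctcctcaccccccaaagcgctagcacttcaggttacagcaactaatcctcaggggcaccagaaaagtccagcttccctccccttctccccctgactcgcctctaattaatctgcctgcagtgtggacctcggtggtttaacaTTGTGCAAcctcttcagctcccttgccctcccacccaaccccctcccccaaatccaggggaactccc
Tgm1, chr14:55713483-55713742, minus strand: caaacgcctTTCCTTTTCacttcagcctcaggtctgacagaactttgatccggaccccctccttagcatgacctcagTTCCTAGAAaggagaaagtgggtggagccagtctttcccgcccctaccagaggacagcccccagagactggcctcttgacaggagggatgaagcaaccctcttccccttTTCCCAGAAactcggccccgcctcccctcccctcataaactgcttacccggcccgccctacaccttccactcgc
The motifs were those of STAT (TTCNNNGAA), C/EBP (TTGCNNAA), AP-1 (TGANTCA), NF-kappaB (GGANTTTCC) and interferon response elements (GAAANNGAA), searched on both strands from 250 bases before to 50 bases after the start. RefSeq windows matched 30 of the 35 members, 18 reactive and 12 identity genes. Capitals mark a STAT match in Gfap that crosses the start site, C/EBP matches in Lcn2 and Ptx3, an AP-1 match in Cp, a STAT and a C/EBP match in Steap4, and in Tgm1 STAT matches and an interferon response element match. STAT matches were in 4 of 18 reactive and 2 of 12 identity genes (Agt and Slc1a3), and in 8.30% of all 32851 windows. C/EBP matches were in 4 of 18 and 2 of 12, against 10.8%, AP-1 matches in 2 of 18 and 1 of 12, against 7.81%, interferon response element matches in 2 of 18 and 1 of 12, against 8.56%, and NF-kappaB matches in 0 of 30, against 1.25%. In Emp1 a STAT and an AP-1 match overlapped. Of the genes lower in MyTrMaSt + CBE, the windows of Vim, Serpina3n, Aspg and Slc10a6 held none of these letters. A match is no evidence of binding. The lack of a match does not show that a site is absent, since only these letters were searched.

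Of the 15 identity genes, with CBE in WT mice 6 were called higher (Aqp4, Sox9, Id3, Agt, Slc1a3 and Gjb6) and 1 lower (S100b), against 6.7% and 3.89% of all genes, and the median log2 fold change was 0.65. In MyTrMaSt mice 7 were called higher (Agt, Id3, Aldh1l1, Atp1b2, Glul, Aldoc and Gjb6) and none lower, against 5.32% and 2.44%, with a median of 0.70. Without WT + CBE replicate 2 the count of identity genes called in WT mice was 4. All 15 had a positive log2 fold change in MyTrMaSt mice, and 13 did in WT mice. Of 10 neuron markers 4 were called lower with CBE in WT and 2 in MyTrMaSt mice, against 3.89% and 2.44% of all genes. Their summed level was 5087 to 5889 CPM in WT + PBS, 4223 to 4539 CPM in WT + CBE, 5898 to 6836 CPM in MyTrMaSt + PBS and 4683 to 5549 CPM in MyTrMaSt + CBE. The part of this fall in the rise of the identity genes was not tested. Among the identity genes 4 were DEGs in WT and 1, Agt, in MyTrMaSt mice, against 5.2% and 3.23% of all genes, and none reached a log2 fold change of 2 in either. Agt, Id3 and Gjb6 were called in both genotypes. That other genes were called in only one genotype does not show a difference, since edgeR called 0 of 15 identity genes for the difference of the responses, 3 of them with an unadjusted p below 0.05, as had 12.5% of all genes.

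**Figure D5:**
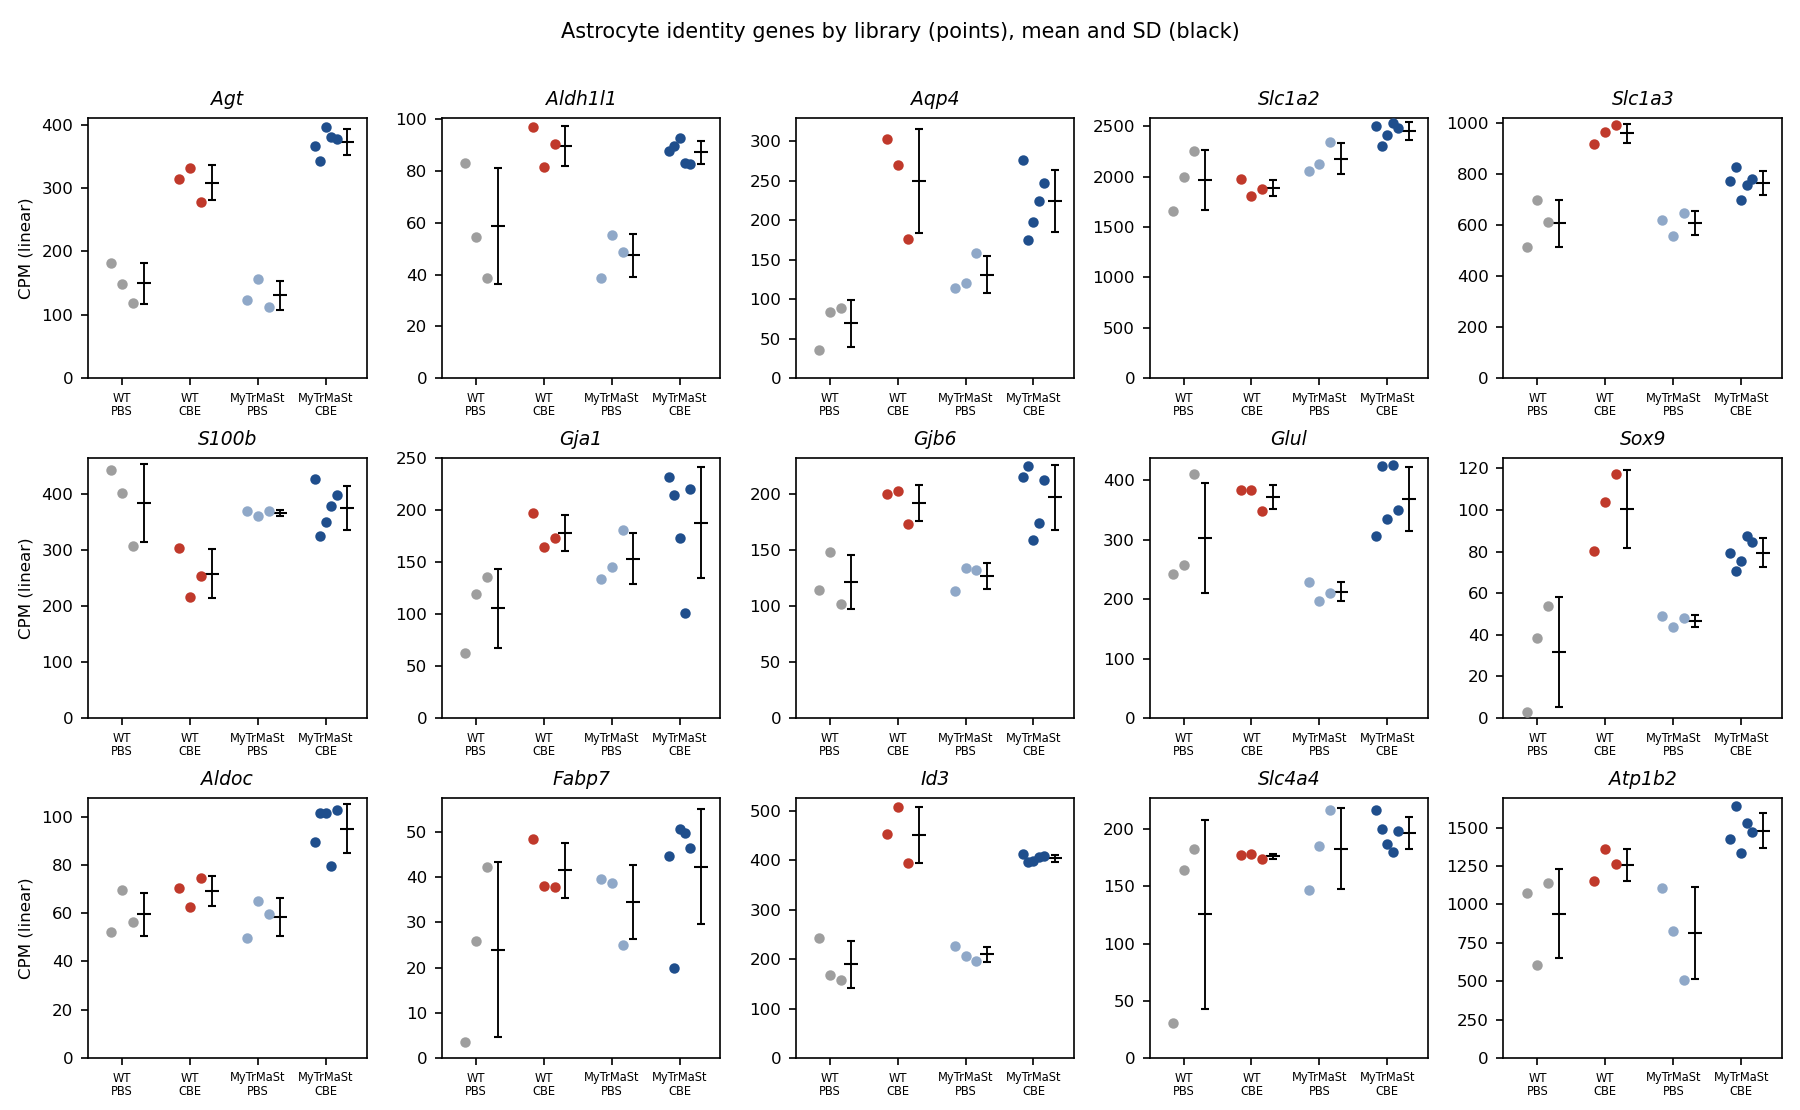
CPM (y axes, linear, from 0, a scale of its own for each gene) of the 15 identity genes in each of the 14 libraries (points) by group (x axis), with mean and SD in black. Agt and Id3 lay higher in each CBE library than in each PBS library, Slc1a2 overlapped between CBE and PBS in both genotypes, and the first WT + PBS library was low for Sox9 (2.71 CPM), Fabp7 (3.61 CPM) and Slc4a4 (30.7 CPM).

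Of the identity genes called in both genotypes, Agt, which encodes angiotensinogen, made in the brain by astrocytes, gave 182, 148 and 118 CPM in WT + PBS and 315, 332 and 278 CPM in WT + CBE. In MyTrMaSt mice it gave 123, 156 and 113 CPM with PBS and 365, 342, 396, 381 and 378 CPM with CBE. The CBE libraries of both genotypes lay above all PBS libraries, with log2 rises of 1.05 (adjusted p = 0.000254, SE 0.17) and 1.51 (adjusted p = 4.23e-06, SE 0.15). Id3, an inhibitor of basic helix-loop-helix transcription factors, gave 244, 167 and 158 CPM in WT + PBS, 454, 508 and 394 CPM in WT + CBE, 226, 207 and 196 CPM in MyTrMaSt + PBS and 413, 397, 399, 406 and 409 CPM in MyTrMaSt + CBE. Its rises were 1.27 (adjusted p = 2.24e-05, SE 0.16) and 0.95 (adjusted p = 0.000395, SE 0.14). Gjb6, a connexin of astrocyte gap junctions, rose by 0.65 (adjusted p = 0.0207, SE 0.17) and 0.64 (adjusted p = 0.0157, SE 0.15), while Gja1, the other main astrocyte connexin, was not called at 0.73 (adjusted p = 0.1, SE 0.27) and 0.30 (adjusted p = 0.487, SE 0.24), although the rise in WT was called without MyTrMaSt + CBE replicate 4 (adjusted p = 0.0404). The call of Gjb6 was lost in WT without WT + PBS replicate 3 or WT + CBE replicate 1 or 2 (adjusted p = 0.0682 to 0.0812) and in MyTrMaSt mice without MyTrMaSt + PBS replicate 1 or 3 (adjusted p = 0.0534 to 0.0839).

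Among channel and transporter genes, Aqp4, the water channel of astrocyte endfeet, gave 35.2, 83.7 and 89 CPM in WT + PBS, 303, 269 and 176 CPM in WT + CBE, 115, 120.2 and 158 CPM in MyTrMaSt + PBS and 276, 175, 198, 224 and 247 CPM in MyTrMaSt + CBE. The WT baseline lay below the MyTrMaSt baseline and the CBE groups overlapped. The log2 rise was 1.81 (adjusted p = 0.000176, SE 0.27) in WT and 0.78 (adjusted p = 0.0561, SE 0.24) in MyTrMaSt mice, and the latter was called by DESeq2 (adjusted p = 0.0287), by limma (adjusted p = 0.00103) and without any of the WT + PBS libraries (adjusted p = 0.00216 to 0.0495). Slc1a3, a glutamate transporter, gave 513, 697 and 610.0 CPM in WT + PBS, 918, 965 and 991 CPM in WT + CBE, 618, 557 and 647 CPM in MyTrMaSt + PBS and 771, 825, 696, 755 and 779 CPM in MyTrMaSt + CBE, with log2 changes of 0.66 (adjusted p = 0.003, SE 0.13) and 0.33 (adjusted p = 0.0968, SE 0.12), the latter called by DESeq2, by limma and without WT + PBS replicate 1 (adjusted p = 0.00615 to 0.0343). With only the WT groups fitted by edgeR the call of Slc1a3 in WT mice was lost (adjusted p = 0.0657). Slc1a2, the main glutamate transporter of astrocytes, gave 1657, 1993 and 2252 CPM in WT + PBS, 1974, 1809 and 1881 CPM in WT + CBE, 2059, 2128 and 2348 CPM in MyTrMaSt + PBS and 2502, 2308, 2417, 2535 and 2484 CPM in MyTrMaSt + CBE, and was called in neither. Slc4a4, a bicarbonate transporter, was called in neither genotype, with 174 to 217 CPM in the CBE libraries. Atp1b2, a sodium pump subunit, gave 1107, 825 and 509 CPM in MyTrMaSt + PBS and 1424, 1639, 1336, 1528 and 1472 CPM in MyTrMaSt + CBE, a log2 rise of 0.86 (adjusted p = 0.0191, SE 0.22) that was not called without MyTrMaSt + PBS replicate 2 or 3 (adjusted p = 0.0665 to 0.124), against 0.42 (adjusted p = 0.289, SE 0.24) in WT mice, where limma called it (adjusted p = 0.047).

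The metabolic genes Glul, Aldh1l1 and Aldoc were called in MyTrMaSt mice, and their rise in WT mice did not pass the edgeR test. Glul, the glutamine synthetase that recycles glutamate, gave 242, 257 and 409.6 CPM in WT + PBS, 384, 383 and 349 CPM in WT + CBE, 229, 197 and 211 CPM in MyTrMaSt + PBS and 307, 423, 334, 426 and 349.5 CPM in MyTrMaSt + CBE. Its log2 rises were 0.29 (adjusted p = 0.359, SE 0.19) and 0.79 (adjusted p = 0.00684, SE 0.17), and without WT + PBS replicate 3, the highest of its group, the rise in WT was called (0.58, adjusted p = 0.0356). Aldh1l1, a folate enzyme and a general astrocyte marker, gave 83, 54.4 and 38.8 CPM in WT + PBS, 97.2, 81.7 and 90.4 CPM in WT + CBE, 38.7, 55.2 and 48.6 CPM in MyTrMaSt + PBS and 87.7, 89.8, 92.8, 83.2 and 82.6 CPM in MyTrMaSt + CBE. The rises were 0.65 (adjusted p = 0.0583, SE 0.21) and 0.87 (adjusted p = 0.0078, SE 0.19), and without WT + PBS replicate 1 the rise in WT was 0.94 (adjusted p = 0.000542). DESeq2 and limma called the rise of Aldh1l1 in WT as well (adjusted p = 0.0331 and 0.000225), while the rise in MyTrMaSt mice was not called without MyTrMaSt + PBS replicate 1 (adjusted p = 0.0556). In the last 500 bases of the Aldh1l1 gene 245 exonic bases are shared with Gm15756 on the opposite strand, so reads may be mixed here. Aldoc, a glycolytic aldolase, gave 49.7 to 69.6 CPM in the PBS libraries, 70.4, 62.4 and 74.7 CPM in WT + CBE and 89.6, 101, 102, 79.8 and 103 CPM in MyTrMaSt + CBE, with a rise of 0.70 (adjusted p = 0.00635, SE 0.15) in MyTrMaSt mice. All 5 MyTrMaSt + CBE values of Aldoc were above the 3 WT + CBE values, and the difference was not called by edgeR (adjusted p = 0.18) but was by limma (adjusted p = 0.0117).

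S100b, a calcium-binding protein of astrocytes and some oligodendrocytes, was the only member called lower with CBE. It gave 443, 402 and 308 CPM in WT + PBS and 303, 216 and 254 CPM in WT + CBE, and 370.5, 361 and 370.2 CPM in MyTrMaSt + PBS and 427, 326, 349.7, 379 and 398 CPM in MyTrMaSt + CBE. All WT + CBE libraries lay below all others, and the log2 difference in WT mice was -0.57 (adjusted p = 0.0301, SE 0.16). The call was lost without WT + PBS replicate 1 or 2 or WT + CBE replicate 2 or 3 (adjusted p = 0.0506 to 0.175). Of 8 oligodendrocyte markers 7 were called lower with CBE in WT mice and 1 in MyTrMaSt mice, against 3.89% and 2.44% of all genes, with summed levels of 17236 to 20726 CPM in WT + PBS, 10395 to 13470 CPM in WT + CBE, 17132 to 20510 CPM in MyTrMaSt + PBS and 12867 to 17134 CPM in MyTrMaSt + CBE, none at 0, and their part in the fall of S100b was not tested. Sox9, a transcription factor of astrocytes, gave 2.71, 38.7 and 54 CPM in WT + PBS, 80.3, 104 and 117 CPM in WT + CBE, 49, 43.6 and 47.9 CPM in MyTrMaSt + PBS and 79.1, 70.6, 75.4, 87.6 and 84.5 CPM in MyTrMaSt + CBE. Its log2 rise was 1.53 (adjusted p = 0.0169, SE 0.39) in WT and 0.76 (adjusted p = 0.188, SE 0.34) in MyTrMaSt mice, and 1.13 in WT without the low library, where the rise in MyTrMaSt mice was called (adjusted p = 0.000748), as it was by limma (adjusted p = 0.00728). The call in WT was lost without WT + CBE replicate 2 or 3 (adjusted p = 0.0545 to 0.0634). Fabp7, a fatty acid binding protein of radial glia and astrocytes, overlapped between CBE and PBS in both genotypes.

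The spread between libraries of a group was smaller for identity than for reactive genes in 3 of the 4 groups. Over members with at least 10 counts in every library of the group, the median coefficient of variation was 8.63% for 15 identity genes and 22.4% for 14 reactive genes in MyTrMaSt + CBE, and 8.97% for 15 and 10.6% for 18 in WT + CBE. In MyTrMaSt + PBS it was 13.5% for 15 identity genes and 20.1% for 11 reactive genes, and in WT + PBS 24.9% for 13 and 24.7% for 7. These values have no test and depend on the counts behind each gene.

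Genes of the same panels that are not members are given as counts. Of 18 further reactive genes 16 were tested, of which 14 were called higher with CBE in WT mice, 9 in MyTrMaSt mice and 9 lower in MyTrMaSt + CBE than in WT + CBE, against 6.7%, 5.32% and 2.35% of all genes, with medians of 3.15, 1.59 and -1.56 on the log2 scale. Between the PBS groups edgeR called 0 of the 16, and 5 had an unadjusted p below 0.05, as had 16.8% of all genes. The 17 listed genes summed to 219 to 248 CPM in MyTrMaSt + PBS, below the 283 to 309 CPM in WT + PBS. Their lower level after CBE can thus include a difference present without CBE. The response was called smaller in MyTrMaSt mice for 4 of the 16 tested, Cxcl10 (-4.70), Gbp2 (-4.56), H2-D1 (-2.16) and Psmb8 (-1.58), which are known as interferon-induced genes, against 0.413% of all genes. The call of Cxcl10 was lost without MyTrMaSt + PBS replicate 3 (-3.86, adjusted p = 0.336) and that of Psmb8 on leaving out each of 8 libraries in turn (adjusted p = 0.0581 to 0.167), and both calls were lost with the Xist level as a covariate (adjusted p = 0.0664 and 0.19). Cd14, a co-receptor of endotoxin, rose by 3.06 in WT and 3.09 in MyTrMaSt mice, and S100a10, a partner of annexins, by 0.85 and 0.91. Of 20 further astrocyte-enriched genes 2 were called higher and 4 lower with CBE in WT mice, 3 higher and 1 lower in MyTrMaSt mice, where the shares of all genes were 6.7% and 3.89% in WT and 5.32% and 2.44% in MyTrMaSt mice, with medians of -0.07 and 0.10, against 0.65 and 0.70 for the 15 identity members. Slc7a10 (-1.14), Mfge8 (-1.09) and Hes5 (-0.95) fell most in WT mice, the call of Hes5 being lost without WT + PBS replicate 3 or WT + CBE replicate 2 or 3 (adjusted p = 0.0646 to 0.141). With only the WT groups fitted by edgeR the calls of Slc7a10, Mfge8 and Hes5 were lost (adjusted p = 0.0996, 0.052 and 0.09). In the STAT3 cytokine pathway 9 of 12 genes were tested, of which 3 were called higher in WT and 4 in MyTrMaSt mice, against 6.7% and 5.32% of all genes. Between the CBE groups edgeR called 0 of them, 2 having an unadjusted p below 0.05, whereas Osmr was called lower in MyTrMaSt + CBE by DESeq2 (adjusted p = 0.0254) and limma (adjusted p = 0.00131), and Socs3 by limma (adjusted p = 0.041). Osmr, the oncostatin M receptor, rose by 3.24 (adjusted p = 5.78e-06, SE 0.37) in WT and 2.23 (adjusted p = 0.000282, SE 0.33) in MyTrMaSt mice, and Socs3, a feedback inhibitor induced by STAT3, by 2.90 (adjusted p = 0.00197, SE 0.56) and 2.29 (adjusted p = 0.00581, SE 0.48). MyTrMaSt + CBE replicate 4 stood apart here, with a sum of 528 CPM over 10 STAT3 pathway genes against 348 to 379 CPM in the other 4 libraries, and of 918 CPM over 17 further reactive genes against 452 to 564 CPM. Without it the rise of Socs3 in MyTrMaSt mice was 1.69, and Socs3 was called lower in MyTrMaSt + CBE than in WT + CBE (-0.92, adjusted p = 0.0219), as was Osmr without WT + PBS replicate 1 or MyTrMaSt + PBS replicate 2 (adjusted p = 0.0129 and 0.0481).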

How the data were processed

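RNA from mouse brain tissue was sequenced by the authors as bulk MARS-seq, which reads transcript 3′ ends, in 14 libraries. Per the labels and the methods of the study, reads were trimmed with cutadapt, mapped to mm10 with hisat and counted with HTSeq, and the deposited table holds raw read counts per gene symbol for 13866 genes, each with at least 6 counts in some library. Which annotation was used, and whether strand or molecular identifiers entered the counting, is not given in the sources used here, so counting intervals and floors cover counting error only. The deposited scaled counts and the authors' fold changes and p-values were not used.

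Groups and replicate numbers were taken from the sample titles. Counts were filtered (filterByExpr, 11852 genes kept), scaled by TMM and fitted with edgeR 4.0.16 (glmQLFit and glmQLFTest, R 4.3.3) with 1 mean per group over all 14 libraries, and p-values were adjusted over all genes tested. Intervals of fold changes are 95% intervals from that fit, and ratios of pooled counts have exact 95% intervals. These exact intervals leave out the spread between mice, and an adjusted p given beside such a ratio is from the edgeR fit. Summed levels add the CPM of listed genes. Alternatives were the scaling of DESeq2 (RLE), no filter, at least 10 counts in every library, DESeq2 1.42.0, limma 3.58.1 (voom with sample weights), only the groups compared, leaving out each library, a replicate block, log2 Xist as a covariate and a 2-fold threshold. The test was run on simulated counts before use. Replicate libraries differed by more than counting noise in all 19 pairs within groups (chi-square per degree of freedom, 2.45 to 22.3). P-values measure the spread between mice of 1 line per genotype.

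The members and the other gene lists were chosen with earlier results of these data known. Every member is accounted for, and of the other lists counts are given with at most the 3 largest and 3 smallest changes among called genes, besides the genes called for the difference of the responses.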

Additional observations from a re-analysis of the deposited data

Results flagged for a closer look

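In the 5 MyTrMaSt + CBE libraries, 4 members had a value far from the rest by Dixon's criterion (critical value 0.710 for 5 samples), which chance alone passes in about 1 of 20 groups, and 35 members were examined. Ptx3 was 25.1 CPM in replicate 4 against 3.51 to 6.65 CPM in the others. Emp1 was 17.7 CPM in the same library against 2.43 to 4.29 CPM. Slc10a6 was 4.88 CPM in replicate 2 against 2.03 to 2.74 CPM. Fabp7 was 19.9 CPM in replicate 2 against 44.8 to 50.7 CPM. MyTrMaSt + CBE replicate 4 was also the library of its group without Xist counts, and the part of this in the values of Ptx3 and Emp1 was not tested.

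The change with CBE differed between genotypes by the test of that difference for 4 members, with a log2 change in MyTrMaSt minus that in WT of -1.21 for Vim, -4.84 for Lcn2, -1.73 for Serpina3n and -2.03 for Cp. Of all genes 0.413% were called smaller by this test.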

How the results depend on the processing

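Counts of called members were within 1.5 times the value reported for RLE scaling and no filter. With at least 10 counts in every library, which leaves fewer members tested, 6 reactive genes were called in WT and 6 in MyTrMaSt mice, 2 members between the CBE groups and 2 for the difference of the responses. With a 2-fold threshold 4 identity genes were left in WT and 1 in MyTrMaSt mice, fitting only the groups compared left 3 in WT (the calls of Slc1a3, S100b, Gjb6 and Sox9 were lost), and the Xist covariate left 4 in WT and 0 for the difference of the responses. Limma called 16 members between the CBE groups. The cause was not tested for these beyond the fewer genes or samples.

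The replicate numbers did not pair the samples (correlations of deviations from -0.184 to 0.173 over 18 pairs, 3 over 0.1). With a replicate block 17 reactive genes were called in WT and 8 in MyTrMaSt mice, 7 and 3 identity genes, 7 members between the CBE groups, 0 between the PBS groups and 3 for the difference of the responses.

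Leaving out 1 library gave 16 to 17 reactive genes in WT, 9 to 15 in MyTrMaSt mice (9 without MyTrMaSt + PBS replicate 2), 4 to 8 identity genes in WT (4 without WT + CBE replicate 2) and 5 to 10 in MyTrMaSt mice. It gave 7 to 13 members between the CBE groups, 0 between the PBS groups, and 0 to 6 for the difference of the responses (0 without MyTrMaSt + PBS replicate 3, 1 without WT + CBE replicate 2 or 3, 2 without MyTrMaSt + PBS replicate 2). Signs turned under some alternative for 39 log2 differences of members, of which 0 were called by edgeR as reported and the largest was 0.53 on the log2 scale. The difference of responses of Gfap was 0.030 with DESeq2, 0.17 with the Xist covariate and -0.61 to 0.33 on leaving out 1 library, Gfap between the CBE groups was -0.11 to 0.043, and Cp with CBE in MyTrMaSt mice was -0.15 to 0.28. Of 3723 values over all members tested, comparisons and alternatives, 3452 kept direction and side of the threshold, 89 lost the call, 56 gained it and 126 turned sign. Depth limits Tgm1, Ptx3, Emp1 and Slc10a6, whose PBS libraries held few or no counts.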
